A study of Mus musculus with 6 samples.

Results

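Etfb, Acad11 and Gcdh were measured by RNA sequencing in lymphatic endothelium of the mouse meninges, the membranes around the brain. These 3 genes of the 4233 in the deposited table code for enzymes that hand electrons to, or belong to, the electron transfer flavoprotein (ETF). They were selected on their measured values: Etfb and Acad11 were higher and Gcdh was lower in 5xFAD mice than in wild-type littermates, so these differences are given as a description, with no test. The 3 WT libraries came from non-transgenic mice and the 3 5xFAD libraries from littermates that carry transgenes with familial Alzheimer's disease mutations, a model of amyloid deposition in which the Thy1 promoter drives the transgenes mainly in neurons. All mice were C57BL/6J males aged 6 months, and each library held cells pooled from 10 mice. Lymphatic endothelial cells were sorted as DAPI-negative, CD45-negative, CD31-positive and podoplanin-positive singlets, and their RNA was amplified linearly before sequencing.

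ETF is a soluble flavoprotein of the mitochondrial matrix made of an alpha subunit (Etfa) and a beta subunit (Etfb). It collects electrons from the acyl-CoA dehydrogenases of fatty acid and amino acid breakdown and passes them to ETF dehydrogenase (Etfdh) in the inner membrane, which reduces ubiquinone for complex III. Acad11 is an acyl-CoA dehydrogenase for long-chain substrates that has been placed in mitochondria and in peroxisomes, and Gcdh is glutaryl-CoA dehydrogenase, the enzyme that oxidises and decarboxylates glutaryl-CoA in the breakdown of lysine, hydroxylysine and tryptophan. Inherited loss of ETF or Etfdh causes multiple acyl-CoA dehydrogenase deficiency, and loss of Gcdh causes glutaric aciduria type I. In lymphatic endothelium, fatty acid oxidation is known for its part in differentiation during vessel growth.

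The sequence just before each start is shown so that the levels can be set beside the promoters they belong to (RefSeq, GRCm38.p6, 5′ to 3′ on the strand of the gene). The stretches are chr7:43443822-43444071 on the plus strand for Etfb, chr9:104063521-104063685 on the plus strand for Acad11 and chr8:84893922-84894171 on the minus strand for Gcdh. Those of Etfb and Gcdh are the 250 bases before the RefSeq start. For Acad11 the stretch runs from 203 to 39 bases before it, because the other bases of that window lie in GENCODE exons of Acad11. GENCODE starts Acad11 at 104063377 and RefSeq at 104063724, so in GENCODE this stretch lies inside the gene. Which start was used in these cells was not tested. Capitals mark matches to CCAAT and to the GC box GGGCGG, which on the opposite strand read ATTGG and CCGCCC.
Etfb: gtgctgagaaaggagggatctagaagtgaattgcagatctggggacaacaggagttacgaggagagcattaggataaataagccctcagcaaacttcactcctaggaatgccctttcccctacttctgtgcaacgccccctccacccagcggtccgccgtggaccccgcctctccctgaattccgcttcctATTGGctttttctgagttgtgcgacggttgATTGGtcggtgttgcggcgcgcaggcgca
Acad11: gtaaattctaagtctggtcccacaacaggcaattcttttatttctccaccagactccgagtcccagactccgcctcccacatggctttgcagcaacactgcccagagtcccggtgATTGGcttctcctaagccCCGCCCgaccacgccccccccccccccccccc
Gcdh: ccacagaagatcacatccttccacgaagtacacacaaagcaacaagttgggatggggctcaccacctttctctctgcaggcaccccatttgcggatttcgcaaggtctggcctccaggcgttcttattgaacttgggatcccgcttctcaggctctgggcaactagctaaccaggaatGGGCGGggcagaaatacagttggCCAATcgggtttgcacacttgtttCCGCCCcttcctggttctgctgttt

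Each promoter held at least 1 CCAAT match. Etfb had 2, at 59 to 55 and 29 to 25 bases before the start and both on the opposite strand. Acad11 had 1 on the opposite strand at 88 to 84 bases, and Gcdh had 1 on its own strand at 49 to 45 bases. GC boxes were at 70 to 65 bases in Acad11 and at 72 to 67 and 25 to 20 bases in Gcdh. Of 27025 promoters with the same 250-base window, 34.5% held CCAAT and 32.9% held GGGCGG, so these matches are common ones. Neither the TATA box TATAAA (13.0% of promoters), the nuclear receptor core AGGTCA (13.8%), the cAMP response element TGACGTCA (1.62%), the E-box CACGTG (6.05%) nor the NRF1 site GCGCATGC (2.32%) was found in the 3 windows on either strand. No searched string lies within another. The GC content of the whole windows was 55.6% for Etfb, 58.4% for Acad11 and 53.6% for Gcdh.

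Values below are normalised counts, that is reads per gene divided by 1 factor per library. The reads behind each are whole numbers recovered from the table, which may be rounded estimates. Etfb had no read in any of the 3 WT libraries, where a count of 0 allows normalised counts of up to 3.43. In the 3 5xFAD libraries it stood at 372 (448 reads, 95% counting interval 338 to 408), 366 (301 reads, 326 to 410) and 78.3 (59 reads, 59.6 to 101). The first and second 5xFAD libraries were alike and the third was low, with a highest to lowest ratio of 4.75, but the groups did not overlap. The 5xFAD mean was 272 ± 168 (SD, n = 3), at least 310-fold above a floor of 3 reads over the WT group. Leaving out 1 library moved this bound to between 200 without the first WT library, where the floor rests on fewer libraries, and 421 without the third 5xFAD library. In these bulk libraries fewer cells with a transcript and less of it per cell cannot be told apart.

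Acad11 was at 0, 7.44 (8 reads, 3.21 to 14.7) and 7.96 (9 reads, 3.64 to 15.1) in the WT libraries. Its 5xFAD values were 233 (281 reads, 207 to 262), 101 (83 reads, 80.4 to 125) and 204 (154 reads, 173 to 239). Here the second 5xFAD library was the low one, the 3 values lay within 2.31-fold of each other, and each was above every WT value. Group means were 5.13 ± 4.45 for WT and 179 ± 69.5 for 5xFAD (SD, n = 3 each). From the summed reads, 17 against 518, the 5xFAD level was 37.5-fold higher (counting interval 23.2 to 64.9). Without the first WT library, the one with no Acad11 read, it was 24.2-fold.

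Gcdh ran the other way. Its WT values were 438 (533 reads, 402 to 477), 475 (511 reads, 435 to 518) and 106 (120 reads, 88.0 to 127), the third WT library being low by 4.48-fold against the highest. Of the 5xFAD libraries, the first and the third had no Gcdh read and the second had 1 read, a normalised count of 1.22 (0.0308 to 6.77). The WT mean was 340 ± 203 and the 5xFAD mean 0.405 ± 0.702 (SD, n = 3 each). With 1164 WT reads against 1 read in 5xFAD, the WT level was 946-fold higher, with a counting interval from 169 to 37400 that a single read sets. It was 536-fold without the first 5xFAD library and at least 222-fold without the second, the one that holds the read.

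**Figure D1:**
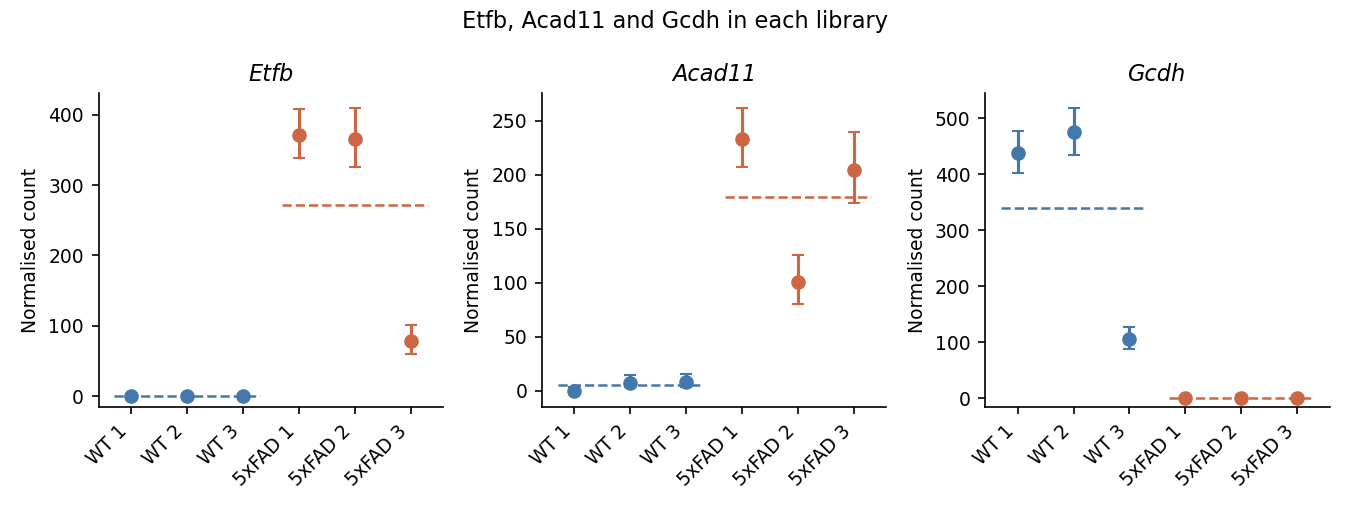
Normalised count (vertical axis, linear, own scale per gene) of Etfb, Acad11 and Gcdh in the 3 WT (blue) and 3 5xFAD (orange) libraries. Points are single libraries, bars are 95% counting intervals and dashed lines are group means. Etfb and Acad11 sit near 0 in WT and between 78.3 and 372 in 5xFAD, and Gcdh sits near 0 in 5xFAD and between 106 and 475 in WT.

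On the scale of log2(normalised count + 1), the difference of 5xFAD minus WT was 7.79 for Etfb, 5.33 for Acad11 and -7.76 for Gcdh. In absolute size these were larger than those of 99.6%, 98.3% and 99.6% of the 4152 genes tested. Two-sided limma calls at an adjusted p under 0.05, the values on which the 3 genes were selected, covered 1.88% of tested genes in the higher direction (78 genes) and 4.48% in the lower direction (186 genes). Etfb ranked 2 and Acad11 12 by log2 difference among the tested genes that were higher, and Gcdh ranked 14 among those that were lower. Groups without overlap, as in all 3 genes, were seen in 7.97% of tested genes for higher values in 5xFAD (331 genes) and in 10.1% for lower values (421 genes). Because the same contrast chose the 3 genes, nothing is read from these shares.

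The low side of each gene was set beside the other genes of the table. Of 4233 genes, 11 (0.260%) had, like Etfb, no read in WT. No more than the 17 WT reads of Acad11 were found in 81 genes (1.91%). At most 1 read in 5xFAD, like Gcdh, was found in 66 genes (1.56%). Etfb, Acad11 and Gcdh were selected on these same values, and the shares cover listed genes only, so nothing is read from these shares. Genes without a read numbered 26, 25 and 42 in the WT libraries and 87, 86 and 147 in the 5xFAD libraries, so reads at 0 were more frequent in 5xFAD. The part of this in the Gcdh value was not tested. On the high side the genes were of low to middle rank: 33.4% of tested genes had a lower mean than Etfb in 5xFAD, 27.3% a lower mean than Acad11 in 5xFAD, and 35.1% a lower mean than Gcdh in WT.

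**Figure D2:**
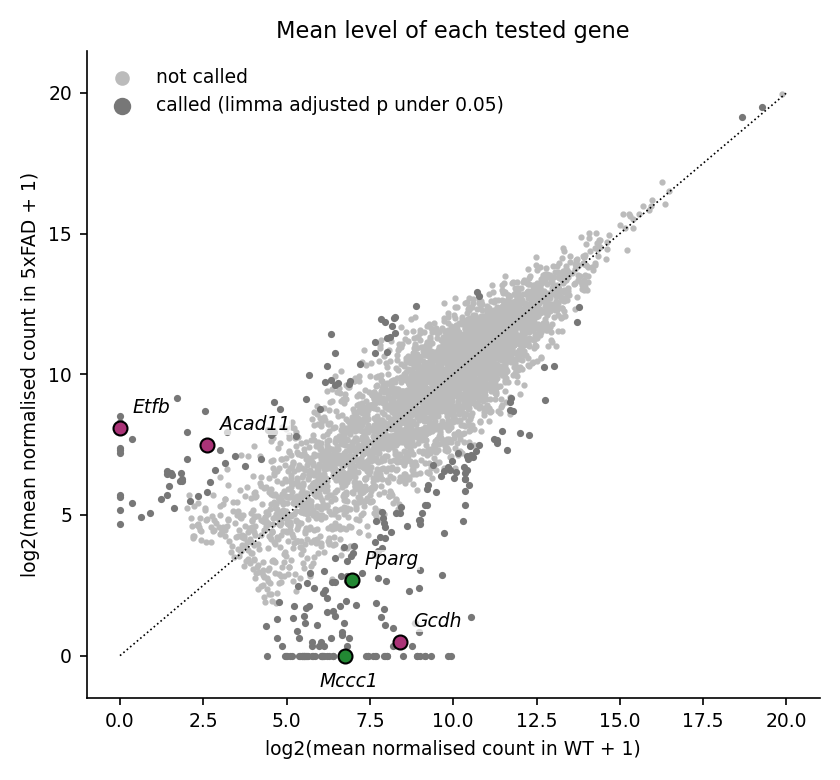
Mean level of the 4152 tested genes in WT (horizontal axis) and 5xFAD (vertical axis), each as log2(mean normalised count + 1), with equality as a dotted line. Etfb, Acad11 and Gcdh are purple, and Mccc1 and Pparg are green. Etfb lies on the left edge at a WT mean of 0, and Gcdh near the lower edge at a 5xFAD mean of 0.405.

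The spread within groups had an upper edge in the table. Within WT and within 5xFAD no gene had an SD of log2(reads + 1) of 2 or more (highest 1.99961 in each), and no source used here states a limit. The SD of Acad11 in WT was 1.88, close to this highest value, because 1 library had no read and the others 8 and 9. The SD of Etfb in 5xFAD was 1.54 and that of Gcdh in WT was 1.22. If such a limit was applied, genes with a large difference between genotypes would be listed only where their replicates stayed within it, which was not tested.

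Levels were also divided by the length of the longest coding mRNA, as a rough scale between genes. Etfb in 5xFAD stood at 305 ± 188 normalised counts per kb (416, 410 and 87.7 in the 3 libraries). Acad11 in 5xFAD, with an mRNA of 3444 nt against 893 nt for Etfb, stood at 52.1 ± 20.2 per kb (67.7, 29.3 and 59.3). Gcdh in WT, with 2167 nt, reached 157 ± 93.8 per kb (202, 219 and 49.0). Per kb, Etfb was above Acad11 in each of the 3 5xFAD libraries, and the gap was smallest in the third (87.7 against 59.3). The RNA was amplified and Etfb shares exons with a predicted gene (below). Whether reads scaled with length was not tested. On the other side, Acad11 in WT was at 1.49 ± 1.29 per kb and Gcdh in 5xFAD at 0.187 ± 0.324.

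Across the 6 libraries, the Pearson correlation of log2(normalised count + 1) was 0.899 between Etfb and Acad11, -0.953 between Etfb and Gcdh and -0.948 between Acad11 and Gcdh. These describe the difference between genotypes that the genes were chosen for. Within 5xFAD the order differed: Etfb was lowest in the third library and Acad11 in the second.

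The tested genes most like each of the 3 in this measure over 6 libraries share the split between genotypes, and no test applies. For Etfb they were Arrdc1, an arrestin-domain adaptor of ubiquitin ligases (r = 1.00, 0 in all WT libraries and 47.3, 42.6 and 14.6 in 5xFAD), Evi2 (0.989) and Cdc25a, a cell cycle phosphatase (0.978), both also without WT reads. For Acad11 they were Sytl4, a Rab effector of secretory granules (0.989), Usp11, a deubiquitinase (0.978), and Zfp738, a zinc finger gene (0.976). For Gcdh they were Chrm3, a muscarinic acetylcholine receptor (0.995, at 90.4, 103 and 33.6 in WT and 0 in all 5xFAD libraries), Slc2a12, a glucose transporter (0.992), and Trmt13, a tRNA methyltransferase (0.991). Correlations above 0.95 were found with 12 genes for Etfb, 9 for Acad11 and 59 for Gcdh.

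In the GENCODE M21 annotation of GRCm38, the assembly of mm10, Etfb (ENSMUSG00000004610) spans chr7:43444083-43457800 on the plus strand, with 6 exons in its longest coding mRNA and a coding sequence of 765 nt. Acad11 (ENSMUSG00000090150) spans chr9:104063377-104127725 on the plus strand, with 20 exons and a coding sequence of 2337 nt. Gcdh (ENSMUSG00000003809) spans chr8:84886393-84893921 on the minus strand, with 11 exons and 1341 nt. Assignment of reads is least certain for Etfb: exons of Gm45233, a predicted gene on the same strand that runs past the Etfb end, cover 617 bases or 69.1% of its mRNA. On Acad11, exons of Gm28305 on the same strand cover 163 bases (4.73%) and exons of Ackr4 on the opposite strand cover 479 bases (13.9%). Syce2, which overlaps Gcdh on the opposite strand, shares 0 exon bases with its mRNA. Reads could have been split between Etfb or Acad11 and these loci, which were not analysed here. The settings and strand use of the counting are not given in the sources used here. The levels of Etfb and Acad11 in each library, the absence of Etfb reads in WT and the folds between genotypes are uncertain to that extent. Whether such a split differed between libraries was not tested.

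Among the nearest genes of the table on either side of the 3 loci, 5 that did not pass the test are given here. Calr, the calcium-binding chaperone calreticulin 39459 bp from Gcdh, was at 1422, 1861 and 787 in WT and at 2948, 13261 and 2229 in 5xFAD. The Calr groups did not overlap, but the log2 difference of 1.79 (SE 0.81) had a limma adjusted p of 0.204. Rtbdn on the other side of Gcdh (53070 bp), Zfp715 and 4931406B18Rik beside Etfb (130789 and 34244 bp) and Nek11 beyond Acad11 (1034431 bp) had adjusted p values of 0.892, 0.828, 0.966 and 0.933.

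**Figure D3:**
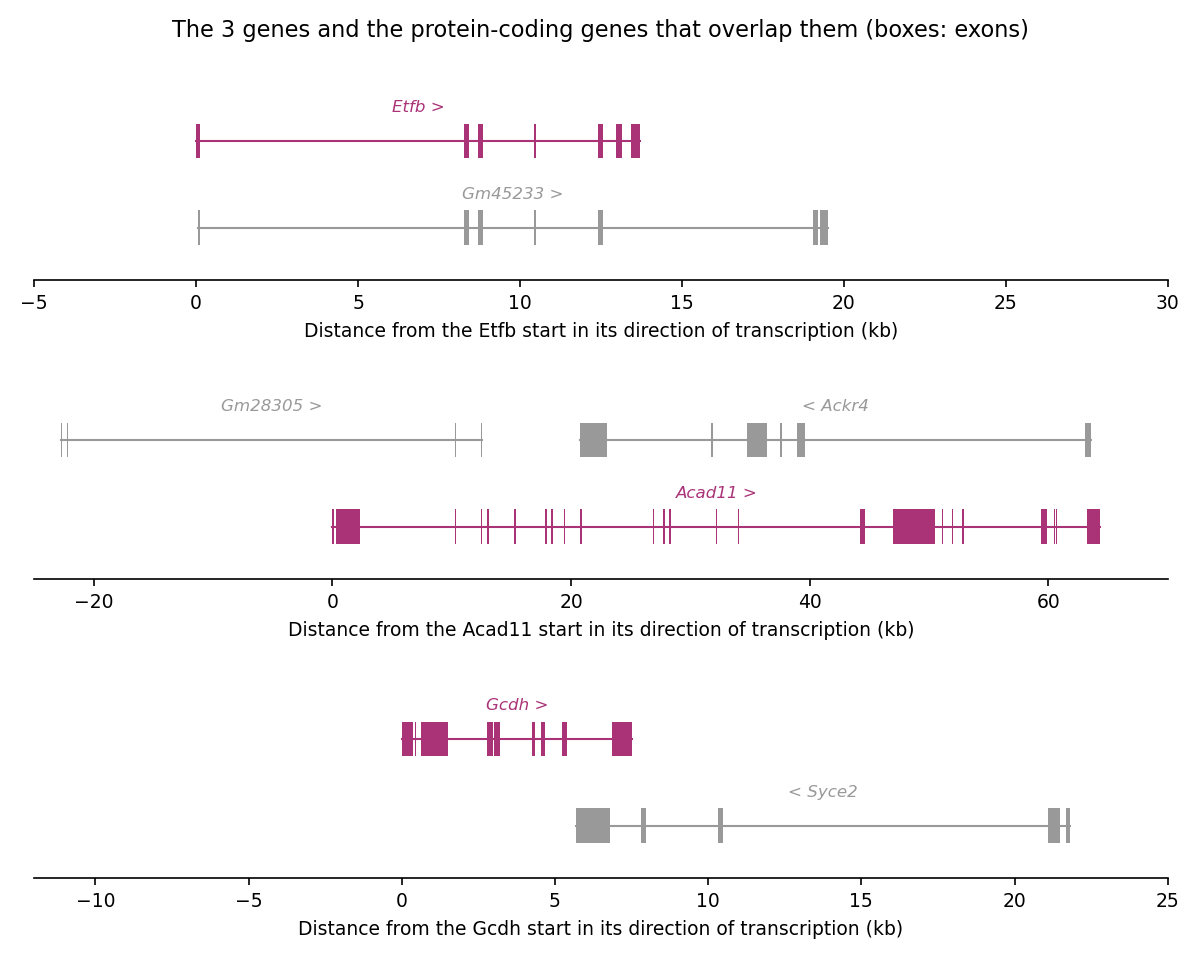
Etfb, Acad11 and Gcdh (purple) and the protein-coding genes that overlap them (grey, not analysed here), drawn by distance in kb from the start of each in its direction of transcription. Boxes are exons of any transcript and arrowheads give direction, and Gm45233 shares exons with Etfb.

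Among the partners of ETF, Etfdh, the dehydrogenase that takes its electrons, was at 1829, 1339 and 336 in WT and at 630, 1724 and 5093 in 5xFAD. The ranges overlapped widely, and its log2 difference of 0.92 (SE 0.91) did not pass the test (limma adjusted p = 0.712). Slc25a32, the mitochondrial carrier that supplies FAD and folate, was at 170, 43.7 and 78.7 in WT and at 134, 767 and 2419 in 5xFAD. Its log2 difference of 2.89 (SE 1.05, adjusted p = 0.0755) missed the threshold. Without the first 5xFAD library, the only one within the WT range, the log2 difference was 4.01 and the adjusted p 0.0160, and without the third it was 1.92 and 0.487. Etfa, the partner subunit of Etfb, was not analysed here, so whether the subunits of ETF moved together cannot be said.

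Of the acyl-CoA dehydrogenases and other enzymes that feed ETF (a list of 16 symbols), 4 were in the table: Acad11, Gcdh, Acadsb and Acad12. Acadsb, the short/branched-chain enzyme of isoleucine breakdown, was at 542, 1331 and 2004 in WT and at 242, 4238 and 1491 in 5xFAD. Its log2 difference was 0.03 (SE 0.92, adjusted p = 0.992). Acad12, a relative of the long-chain enzymes, was at 76.4, 38.1 and 7.96 in WT and at 66.4, 219 and 26.5 in 5xFAD (log2 difference 1.30, SE 1.07, adjusted p = 0.622). In both genes the groups overlapped, whereas in Acad11 and Gcdh, chosen for it, they did not.

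**Figure D4:**
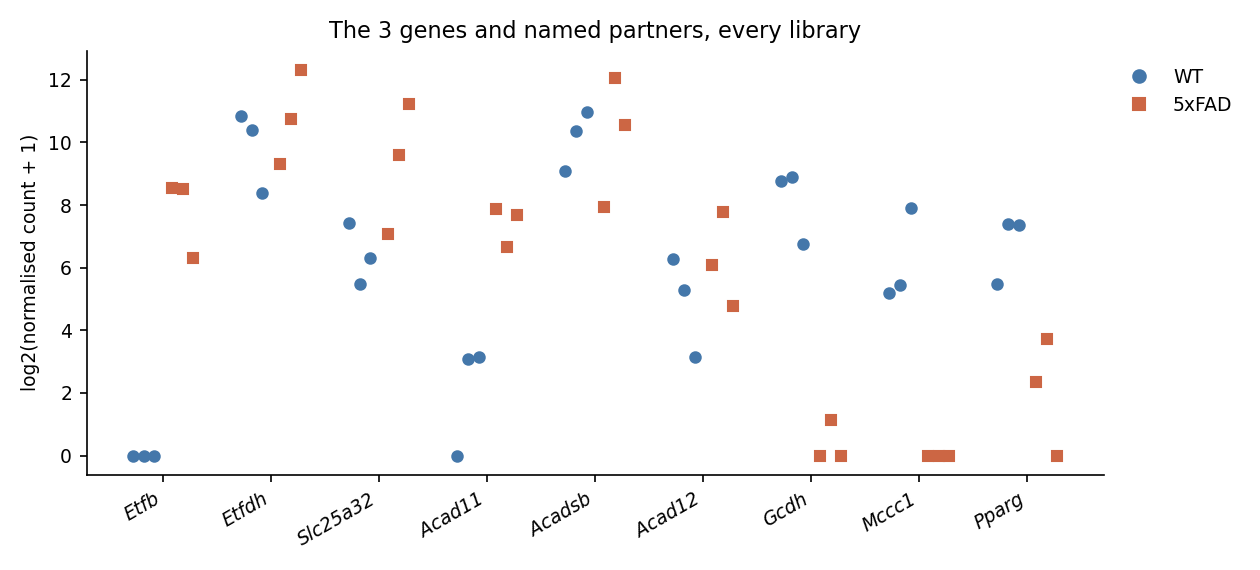
Level of Etfb, Acad11, Gcdh and 6 further genes in each library, as log2(normalised count + 1), with WT as blue circles and 5xFAD as orange squares. Etfdh, Acadsb and Acad12 overlap between genotypes, and Mccc1 lies at 0 in the 3 5xFAD libraries.

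The 8 pathway lists around ETF held 195 symbols, of which 27 besides the 3 genes were in the table and tested. The lists were chosen with earlier results of these data known, so the counts and shares below are a description. With limma none of the 27 was called higher and 2 (7.41%) were called lower, beside 1.88% and 4.48% of all tested genes. Log2 differences were positive in 15 and negative in 12, with a median of 0.16 against -0.02 over the 4152 genes. At an unadjusted p under 0.05 in either direction, 5 of the 27 passed (Slc25a32, Hykk and Sqor with higher values, Mccc1 and Pparg with lower), beside 677 of the 4152 tested genes. On the recovered reads edgeR called 1 of the 27 higher, beside 80 of all genes, and DESeq2 called 2, beside 163.

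Mccc1, a subunit of 3-methylcrotonyl-CoA carboxylase in leucine breakdown (chr3:35959312-36000678), was lower in 5xFAD. It was at 35.3, 42.8 and 241 in WT and had no read in any 5xFAD library. The WT mean of 106 ± 116 (SD, n = 3) was at least 98.5-fold above the floor of 3 reads over the 5xFAD group, with a limma adjusted p of 2.58e-07. The bound was 36.2 without the third WT library, which holds most of the reads, and 55.8 without the first 5xFAD library. Of the other 3 tested genes of branched-chain amino acid degradation, Oxct1, which activates ketone bodies, had a log2 difference of -0.32, and none passed.

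Pparg, a nuclear receptor that controls genes of fatty acid uptake and storage (chr6:115360951-115490399), was also lower. Its WT values were 43.6, 166 and 163 and its 5xFAD values were 4.15, 12.2 and 0, without overlap. The means were 124 ± 69.9 and 5.43 ± 6.18 (SD, n = 3 each), a log2 difference of -4.71 (SE 1.06, limma adjusted p = 0.000336). The adjusted p was 0.0454 without the third 5xFAD library. The other 5 tested regulators did not pass: Nrip1, a corepressor of oxidative genes, was at 3937, 3016 and 2115 in WT and at 1333, 1357 and 463 in 5xFAD without overlap (log2 difference -1.63, adjusted p = 0.336), and Nrf1, Gabpa, Ncor1 and Ep300 ranged from -1.04 to 0.37.

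None of the 5 tested genes of mitochondrial fatty acid entry and beta-oxidation passed, with a median log2 difference of -0.71. Hadhb, the beta subunit of the trifunctional protein, was at 1.28 (limma adjusted p = 0.606) and Acsf2, an acyl-CoA synthetase, at 1.27 (0.518). Echs1, the short-chain enoyl-CoA hydratase, was at -1.87 (0.392), and the thioesterases Acot2 and Acot9 were at -0.89 and -0.71. Cpt1a, the carnitine palmitoyltransferase that admits long-chain fatty acids, was not analysed here. Of the 6 peroxisomal genes none passed and the median was 0.00. The acyl-CoA oxidase Acox3 was at 1.85 (0.363), Crot, the carnitine octanoyltransferase, at 1.01, the thioesterase Acot4 at -0.29, and Hsd17b4, the bifunctional enzyme, was lowest at -0.76.

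In the lysine and tryptophan list, the pathway of Gcdh, none of the 4 other tested genes passed. Hykk, the kinase of hydroxylysine, was at 100, 115 and 211 in WT and at 366, 374 and 1884 in 5xFAD. Its groups did not overlap, and the log2 difference of 2.23 had a limma adjusted p of 0.230. Kmo and Kynu, enzymes of the kynurenine branch, were at log2 differences of -1.45 and 0.88, and Echs1 is given above. Of the ubiquinone, complex II and complex III list (40 symbols) only Sqor, the sulfide:quinone oxidoreductase that like Etfdh reduces ubiquinone, was in the table. It was at 293, 219 and 29.2 in WT and at 1723, 1001 and 190 in 5xFAD (log2 difference 2.46, SE 1.04, adjusted p = 0.158).

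**Figure D5:**
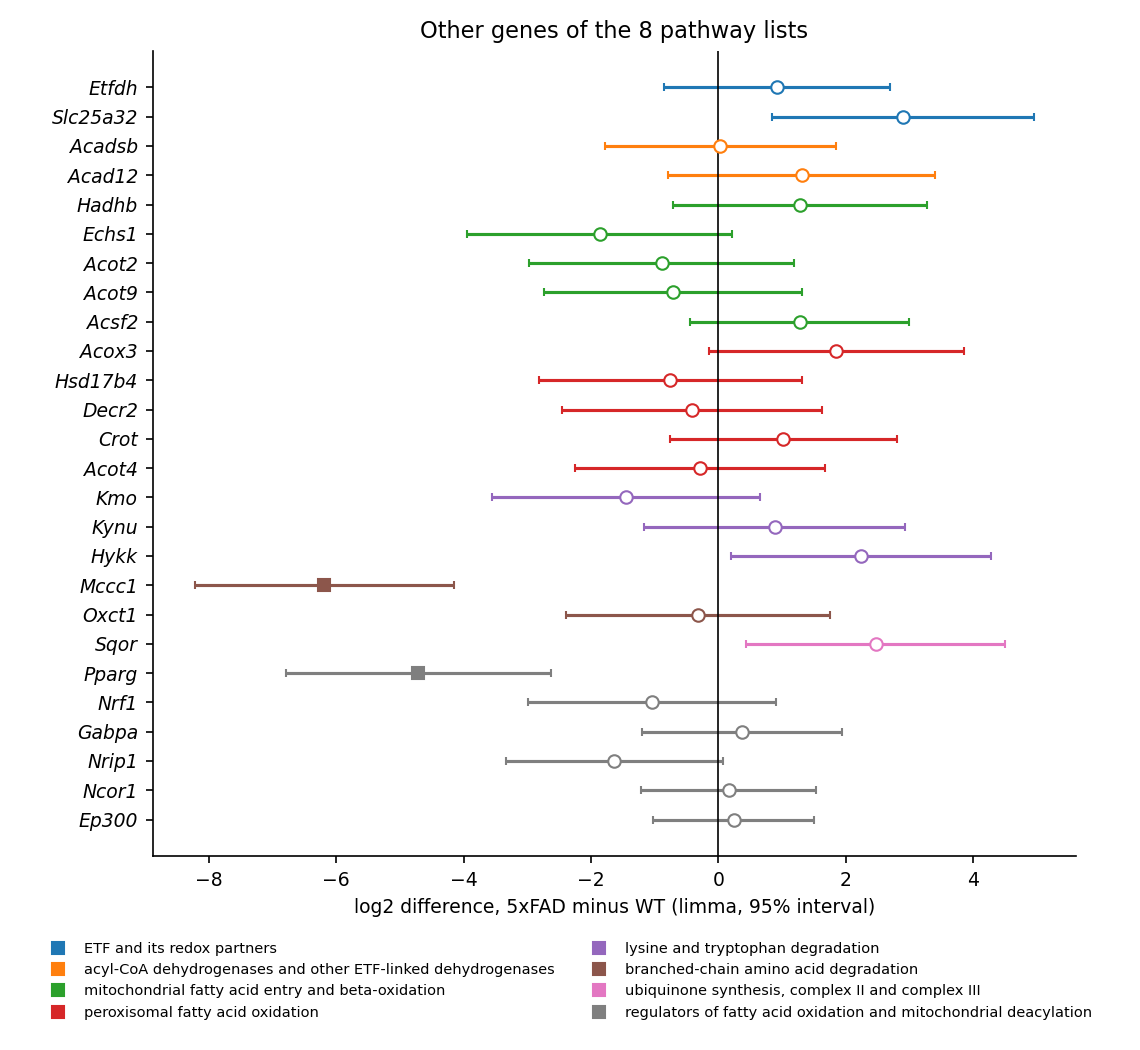
Log2 difference of 5xFAD minus WT with its 95% limma interval for 26 of the 27 other tested genes of the 8 pathway lists, coloured by list. Filled squares passed an adjusted p of 0.05 and open circles did not. Mccc1 at -6.18 and Pparg at -4.71 are the genes that passed.

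The libraries were checked for cell identity. Of 16 lymphatic endothelial markers 14 were in the table and none passed the test, with a summed level of 296202 to 340279 in WT and 266045 to 415183 in 5xFAD. Prox1, the lymphatic transcription factor, was at 20711 ± 5025 and 26064 ± 10883 (SD, n = 3 each), and limma log2 differences were 0.12 for Flt4, -0.25 for Lyve1 and -0.07 for Pdpn and Pecam1. Summed levels of markers listed for other cell types overlapped between genotypes (WT first). For 9 of 15 blood endothelial markers they were 37438 to 57444 and 41577 to 60110. The ranges were 24217 to 47723 and 29612 to 32390 for 6 of 13 fibroblast and arachnoid markers. They were 2507 to 8628 and 3400 to 4645 for 4 of 10 mural markers. Those of 3 of 15 leukocyte markers were 11101 to 17057 and 10927 to 13079. Most of the leukocyte sum was Mrc1, with means of 10024 in WT and 9745 in 5xFAD. Which cells these marker reads came from was not tested. The 2 of 14 neural and glial markers in the table summed to 279 to 1345 in WT and 1125 to 3383 in 5xFAD, and 1 of 10 erythroid and platelet markers, Hbb-bt, ranged from 1362 to 2211 and from 242 to 3526. Of all these markers only Sox17, of arterial endothelium, passed the test: it was at 133, 52.1 and 17.7 in WT and at 0 in the 3 5xFAD libraries. The part of Sox17-positive or neural cells in the values of Etfb, Acad11 and Gcdh was not tested.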

How the data were processed

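Etfb, Acad11 and Gcdh and the gene lists were chosen with earlier results of these data known. The deposited values are a normalised signal, in which 1 factor per library scales the gene counts. Per the submitters' processing notes the tools were FastQC, Trimmomatic, Salmon and DESeq2 with mm10, with no version or setting. Dividing each column by its smallest value above 0 gave whole numbers, called reads here, for 100% of values (within 1e-06). Salmon estimates the reads of each gene, so these may be rounded estimates rather than observed reads. The recovered reads summed to 7960827 to 13255050 per library over the listed genes, a part of the depth. Intervals on reads are exact Poisson intervals (95%) and, like the floor of 3 reads, cover counting error only. They leave out the assignment of reads between genes and the amplification of the RNA.

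The 4152 genes with a mean of at least 10 over the 6 libraries (3 WT, 3 5xFAD, each a separate pool of mice) were tested on log2(value + 1) with limma 3.58.1 (R 4.3.3, two-sided, variance trend, Benjamini-Hochberg adjusted p under 0.05). The prior's degrees of freedom were infinite: each SE is that typical of genes at the same level, and differences of low genes are understated on this scale. The spread of the single gene therefore does not enter its limma p. If genes of large spread were left out of the table, this typical SE could be too small, which was not tested. Alternatives changed the pseudocount, filter, scaling, prior and threshold, left out each library, blocked on the replicate number, and ran edgeR 4.0.16 and DESeq2 1.42.0 on the recovered reads. A test of genes with reads in both groups was added after seeing the data.

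Named genes were the 3 genes, all called list genes, the 4 most abundant measured genes per list, all measured ETF partners and acyl-CoA dehydrogenases, the 3 genes of most similar pattern per gene (predicted and clone names passed over), listed neighbours, and Prox1, Flt4, Lyve1, Pdpn and Pecam1. Acot2, Hsd17b4, Nrf1, Sox17, Hbb-bt and Mrc1 were named after their values were seen. A few genes under this rule are not reported here but stay in the counts. Correlations are Pearson's. Of 474 Ensembl names 453 matched a symbol. Positions are from GENCODE M21 and promoters from RefSeq (GRCm38.p6). The fit was tested on simulated data before use.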

Additional observations from a re-analysis of the deposited data

How the results depend on the processing

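The 3 genes kept their direction with the other pseudocounts, the other scalings and each library left out. The other alternatives were not read for these 3 genes. With a pseudocount of 0.5 the log2 difference of Etfb was 8.79, and with 5 it was 5.50 for Etfb and -5.74 for Gcdh, as a larger pseudocount compresses values near 0. Leaving out 1 library gave 7.41 to 8.53 for Etfb, 4.29 to 5.87 for Acad11 and -8.45 to -7.38 for Gcdh. The groups of each gene do not overlap. A changed pseudocount or a library left out therefore could not reverse the direction for which the genes were chosen. Over all genes, 49 were called higher and 116 lower with a mean of at least 50, where fewer genes were tested, 120 higher with quantile normalisation, 134 higher at an adjusted p under 0.1 and 163 higher with DESeq2. The cause of the last was not tested. Slc25a32 was the 1 list gene called higher with quantile normalisation, at an adjusted p under 0.1, with edgeR and without 5xFAD replicate 1 (0 to 1 over the libraries left out), and DESeq2 called 2, Slc25a32 and Hykk. Pparg was called in 20 of 20 settings. Adjusted p values of Mccc1 and Pparg were 3.62e-05 and 0.00211 with limma without the variance trend. They were 8.27e-06 and 0.00672 with edgeR, and 5.11e-07 and 0.000304 with DESeq2. Mccc1 was called in 19 of 19, and the test of genes with reads in both groups, which leaves it out, called 1 list gene lower. With the replicate block, 80 genes were called higher and 190 lower, and list calls stayed at 0 and 2. The replicate numbers did not pair the libraries (correlations of deviations 0.00247, -0.0157 and -0.0126, and 0 of 6 libraries correlated best with their own number). At 0 to 17 reads on the low side, the folds of the 3 genes are limited by counting. They are also limited by the spread between the pools, which the counting intervals leave out. On the high side this spread was 4.75-fold for Etfb in 5xFAD and 4.48-fold for Gcdh in WT. The folds of Etfb and Acad11 also depend on how reads were assigned where other genes share their exons.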
